A study of Mus musculus with 10 samples.

Results

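The 10 genes described here are axon guidance and axon sorting genes of the olfactory map. They were chosen by name from the table of raw read counts, in which they are 10 of 24421 rows. They comprise the secreted ligands Sema3a, Sema3f and Slit1, the receptors Nrp1, Nrp2, Plxna1, Plxna3 and Robo2, and the adhesion molecules Kirrel2 and Kirrel3. All 10 passed the filter on low counts and were tested.

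Olfactory sensory neurons (OSNs) of the main olfactory epithelium (MOE) that express the same receptor gene send their axons to the same few glomeruli of the olfactory bulb. Neuropilins, plexins and their secreted semaphorin ligands, together with Robo receptors and Slit ligands, place these axons along the main axes of the bulb. Homophilic adhesion molecules of the Kirrel family then sort like axons with like in the target region, and the levels of several of these molecules are known to depend on the cAMP signal or the activity of the neuron.

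RNA was sequenced from the whole MOE of mice labelled C57BL/6 at postnatal day 14, though the study elsewhere gives its lines a mixed background of C57BL/6J and 129, with 4 libraries from homozygous (homo), 3 from heterozygous (het) and 3 from wild-type (WT) mice. The het and homo mice carried a deletion of both TAAR enhancers, 1 and 2, on 1 or both alleles and came from a single double knockout line made with CRISPR-Cas9. These enhancers lie in the cluster of trace amine-associated receptor (Taar) genes, whose products are olfactory receptors of a small set of OSNs. The question put to the guidance genes was whether their RNA in the whole tissue differed with the number of deleted alleles. The paper describes TAAR OSNs as a very small share of the whole MOE. A change confined to these neurons could therefore be too diluted to be seen here.

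Total counts ranged from 21423861 to 27712948 per library. The summed counts of the olfactory Taar genes, which check the labels, were 850 to 915 in WT, 738 to 862 in het and 2 to 5 in homo libraries. All markers of mature and of immature OSNs that were looked for had counts, and so had all markers of the other cell types looked for. The vomeronasal marker Trpc2 had them in het replicate 1 alone. The summed counts of 4 Y-linked genes were 5252 to 6636 in 4 libraries (homo replicates 2 and 3, and replicate 1 of both WT and het), which were taken as male, and 0 to 3 in the other 6. Levels are given in CPM, the raw counts scaled to a common library total. In bulk tissue fewer cells of a type and less RNA per cell cannot be told apart.

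None of the 10 guidance genes passed the test in any comparison of genotypes. With edgeR's quasi-likelihood test and Benjamini-Hochberg adjustment over 17197 genes, 0 of 10 were called between homo and WT, where 0.0698% of all genes were called. Between het and WT 0 of 10 were called, beside 0% of all genes, and between homo and het 0 of 10, beside 0.0756%. A test for any difference among the 3 genotypes also called 0 of 10, beside 0.0698% of all genes, and 0 of 10 had an unadjusted p under 0.05 in it, beside 1.98%. At an unadjusted p under 0.05 the count was again 0 of 10 in each of the 3 pairwise comparisons, beside 2.41%, 1.92% and 2.48% of all genes. The DESeq2 and limma fits called 0 of 10 as well.

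Relative to WT, the median log2 fold change of the 10 genes was 0.021 in homo mice, beside 0.00012 over all genes tested, and 0.0070 in het mice, beside -0.00088. Homo mice relative to het mice gave a median of 8.9e-05, beside -0.00097 over all genes. For 9 of the 10 genes, all but Kirrel2, the 95% confidence intervals of the log2 fold change lay between -0.36 and 0.35 in all 3 comparisons. The lower end was set by Plxna1 and the upper end by Nrp1, both between het and WT.

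**Figure D1:**
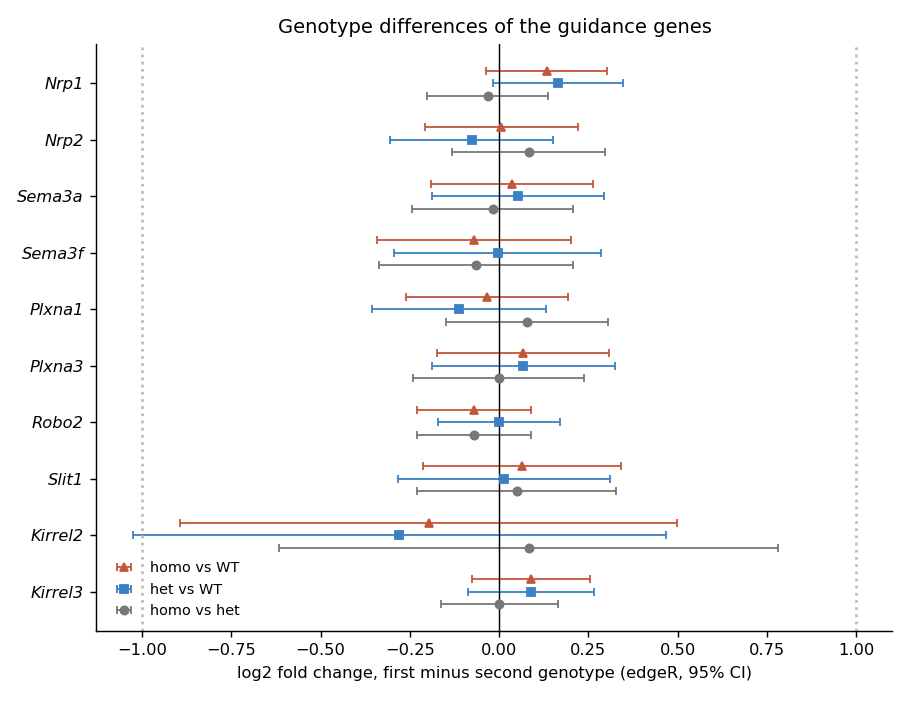
Log2 fold change of each guidance gene between genotypes, as fitted by edgeR, with 95% confidence intervals as bars (x axis, first minus second genotype) and 1 row per gene. All intervals include 0, and those of Kirrel2 are the widest, reaching from -0.89 to 0.50 for homo against WT.

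Among the secreted ligands, Sema3a (chromosome 5, 13125414 to 13602565 on mm10, plus strand) encodes a semaphorin that repels axons bearing Nrp1. Its levels were 36.4, 46.1 and 40.6 CPM in WT, 40.5, 48.6 and 38.7 CPM in het and 43.1, 39.0, 43.7 and 42.0 CPM in homo libraries. The 3 genotypes overlapped, and the log2 fold change between homo and WT was 0.036 (SE 0.11).

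Sema3f (chromosome 9, 107681500 to 107710475, minus strand) encodes the semaphorin that acts through Nrp2. It stood at 57.4, 50.5 and 67.8 CPM in WT, at 62.7, 51.1 and 61.5 CPM in het and at 49.0, 56.8, 47.2 and 69.6 CPM in homo libraries. The lowest and the highest of the 10 values were both homo, and the log2 fold change between homo and WT was -0.070 (SE 0.13).

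Slit1 (chromosome 19, 41600257 to 41743665, minus strand) encodes a secreted repellent that binds Robo receptors. Levels of Slit1 were 46.2, 42.8 and 49.4 CPM in WT and 46.5, 49.1 and 44.1 CPM in het libraries. In homo libraries they were 42.6, 58.4, 36.7 and 54.3 CPM, a range that enclosed both other genotypes. The log2 fold change between homo and WT was 0.064 (SE 0.13).

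Among the receptors, Nrp1 (chromosome 8, 128358604 to 128503363, plus strand) encodes neuropilin-1, which binds Sema3a. Its levels were 105, 111 and 118 CPM in WT, 130, 125 and 122 CPM in het and 123, 120, 114 and 131 CPM in homo libraries. All 3 het libraries were above all 3 WT libraries, while the homo libraries overlapped both. The log2 fold change was 0.17 (SE 0.086) between het and WT, with an unadjusted p of 0.0719 and an adjusted p of 0.9996 by edgeR, and 0.13 (SE 0.080) between homo and WT.

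Nrp2 (chromosome 1, 62703285 to 62818695, plus strand) encodes neuropilin-2, the receptor for Sema3f. It stood at 206, 195 and 161 CPM in WT, at 195, 162 and 176 CPM in het and at 187, 196, 169 and 199 CPM in homo libraries. The genotypes overlapped, and homo and WT means differed by a log2 fold change of 0.0066 (SE 0.10).

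Plxna1 (chromosome 6, 89316314 to 89362620, minus strand) and Plxna3 (chromosome X, 74329066 to 74344689, plus strand) encode plexins, the signalling partners of the neuropilins. Plxna1 was at 361, 320 and 329 CPM in WT, at 333, 331 and 270 CPM in het and at 308, 365, 290 and 348 CPM in homo libraries. Plxna3 was at 183, 184 and 210 CPM in WT, at 198, 216 and 191 CPM in het and at 177, 220, 166 and 240 CPM in homo libraries. Both overlapped between all genotypes. The log2 fold changes between homo and WT were -0.035 (SE 0.11) for Plxna1 and 0.067 (SE 0.11) for Plxna3.

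Robo2 (chromosome 16, 73891839 to 74411825, minus strand) encodes the Slit receptor that takes part in the dorsal to ventral ordering of OSN axons. Its levels were 159, 165 and 166 CPM in WT, 167, 165 and 158 CPM in het and 156, 156, 154 and 153 CPM in homo libraries. The 4 homo libraries were the 4 lowest of the 10. The difference was small, a log2 fold change of -0.070 (SE 0.075) between homo and WT, with an adjusted p of 0.99996 by edgeR.

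**Figure D2:**
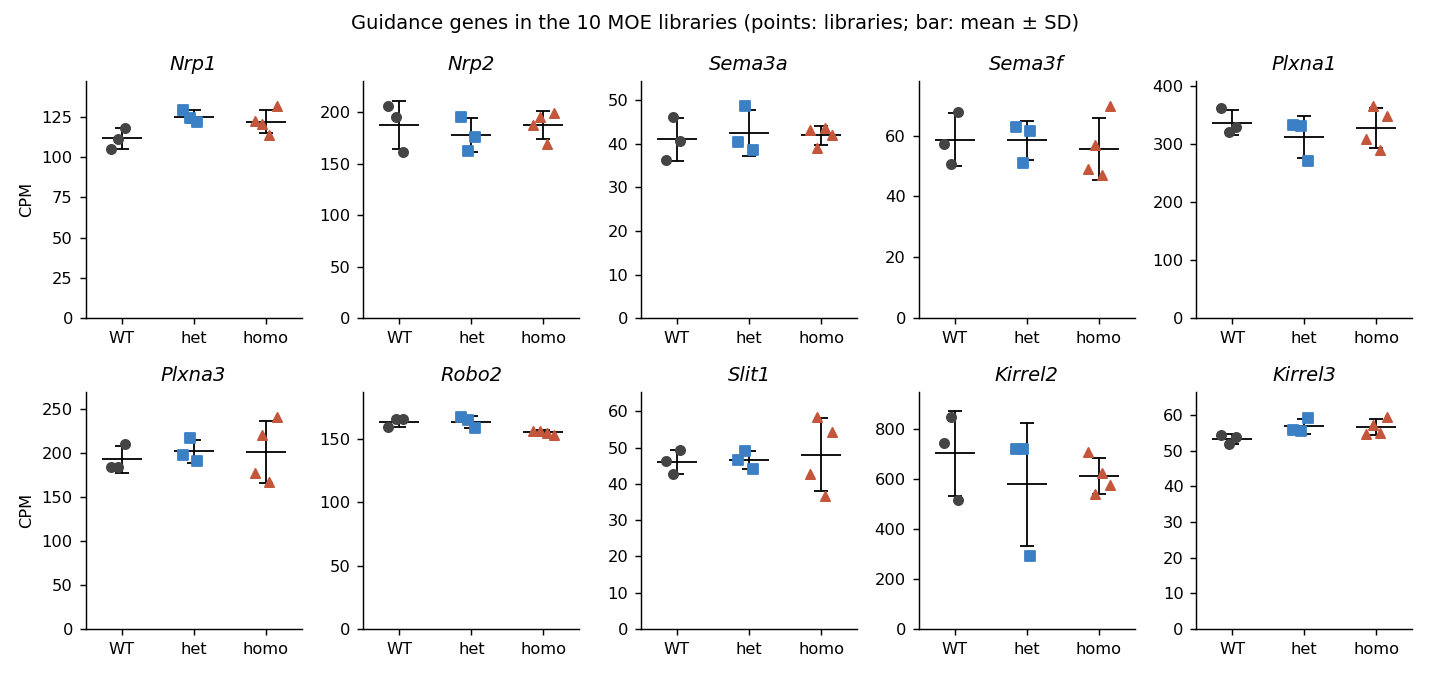
Level of each guidance gene in CPM (y axis, from 0) in the 3 WT, 3 het and 4 homo libraries. Points are libraries and bars are the mean ± SD of a genotype, and het replicate 3 stands lowest for Kirrel2 at 294 CPM.

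The Kirrel genes encode immunoglobulin superfamily adhesion molecules whose levels in an OSN are known to depend on its activity. The RNA of both was measured well in all libraries. Kirrel3 (chromosome 9, 34485894 to 35036716, plus strand) was at 54.3, 51.8 and 53.8 CPM in WT, at 55.8, 55.4 and 59.0 CPM in het and at 54.7, 57.1, 55.0 and 59.4 CPM in homo libraries. Every het and homo library was above every WT library. The log2 fold changes were 0.089 (SE 0.083) between het and WT and 0.090 (SE 0.078) between homo and WT, in 2 comparisons that share the WT libraries, and neither passed the test.

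Kirrel2 (chromosome 7, 30447534 to 30457690, minus strand) was at 746, 848 and 517 CPM in WT, at 721, 722 and 294 CPM in het and at 707, 539, 625 and 576 CPM in homo libraries. Means were 704 ± 170 CPM in WT (SD, n = 3), 579 ± 247 CPM in het (SD, n = 3) and 612 ± 72.4 CPM in homo libraries (SD, n = 4). WT replicate 3 and het replicate 3 were the lowest of their groups. The log2 fold change was -0.20 (SE 0.31) between homo and WT and -0.28 (SE 0.33) between het and WT, so that a fall to 0.539 of WT and a rise to 1.41 of WT both lay within the 95% interval for homo mice.

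Kirrel2 was lower in het than in the WT library of the same number in 3 of 3 pairs, by little in the first (721 and 746 CPM). The share of all genes with this pattern was not counted, so no result is read from it. WT and het libraries of the same number deviated together over all genes. With the replicate number as a block and these 2 groups alone, the log2 fold change between het and WT was -0.36 (SE 0.16, adjusted p = 0.743 by edgeR), beside -0.28 (SE 0.41) for the same libraries with no block. Without the block, the value changed sign when het replicate 3 was left out and its low partner WT replicate 3 was kept (0.043), and it was -0.12 to -0.47 without any other single WT or het library. Without het replicate 3, the fold change between homo and het changed from 0.083 to -0.24. Without WT replicate 3 the fold change between homo and WT was -0.38, and without WT replicate 2 it was -0.045. No call was made under any of these omissions.

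Nrp1, Robo2 and Kirrel3 were the only guidance genes separated between genotypes. In either direction the shares of 10 were above those of all genes, but rested on 1 or 2 genes each. Between homo and WT libraries 1 of 10 (Kirrel3) was higher without overlap, beside 1.7% of all genes tested, and 1 of 10 (Robo2) was lower, beside 1.85% (3.55% in either direction). Between het and WT libraries 2 of 10 (Nrp1 and Kirrel3) were higher, beside 2.94% of all genes, and 0 of 10 were lower, beside 2.28% (5.22% in either direction). Between homo and het libraries 1 of 10 (Robo2) was lower, beside 1.89%, and 0 of 10 were higher, beside 2.04% (3.93% in either direction). Higher values in both het and homo than in all WT libraries were found for Kirrel3 alone among the 10 genes, and for 0.454% of all genes, and lower values in both for 0 of 10, beside 0.32%. On CPM scaled by TMM, an alternative added after the data had been seen, Robo2 overlapped between homo (149 to 159) and het (156 to 168), and the other separations were kept.

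The genes that were separated were also those that varied least. The SD of log2 CPM within genotypes was 0.030 for Robo2, 0.048 for Kirrel3 and 0.076 for Nrp1, beside a median of 0.16 over the 15743 genes with a mean of at least 1 CPM. Robo2 lay at percentile 0.0318 of these genes, Kirrel3 at 0.705 and Nrp1 at 5.64, with no matching for level. These SDs are of CPM without TMM. Scaled by TMM, the homo libraries of Robo2 ranged from 149 to 159, beside 153 to 156 CPM without it. edgeR uses TMM and draws the spread of each gene toward that of genes of like level. The standard errors it gave Robo2 and Kirrel3 were about as large as their fold changes.

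At the other end, Kirrel2 had an SD of 0.46, at percentile 98.2 of all genes. The other 6 genes, Sema3a, Nrp2, Plxna1, Plxna3, Slit1 and Sema3f, had SDs from 0.14 to 0.22. Kirrel2 was therefore the only one of the 10 guidance genes whose libraries differed far more than those of a typical gene, and it had the largest biological coefficient of variation of the 10, 27.9%, beside a common value of 13.9% over all genes.

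Levels between genes were compared per length, as CPM per kb of annotated exon. In WT libraries Kirrel2 stood highest at 179 ± 43.1 (SD, n = 3), followed by Plxna1 at 37.2 ± 2.39, Plxna3 at 24.4 ± 1.91, Nrp2 at 15.8 ± 1.96, Nrp1 at 11.4 ± 0.662 and Sema3f at 11.3 ± 1.68. Below them were Robo2 at 9.62 ± 0.226, Kirrel3 at 8.26 ± 0.211, Slit1 at 7.79 ± 0.557 and Sema3a at 2.96 ± 0.352. Neighbours in this order whose WT libraries overlapped were Nrp1 and Sema3f, Sema3f and Robo2, and Kirrel3 and Slit1. Over all 10 libraries the ranges of Plxna1 and Plxna3 and those of Robo2 and Kirrel3 overlapped too.

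The choice of gene length moved the middle of this order. With the longest coding transcript in place of all exons, chosen after the data had been seen, Nrp1 moved from rank 5 to rank 3 among the 10 genes and Plxna3 from rank 3 to rank 5. Kirrel2 stayed first and Sema3a last under both lengths.

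Within each family the level per kb showed which members the tissue held most of. Among the class 3 semaphorins Sema3f was highest in WT libraries, followed by Sema3b at 5.33 ± 0.892 and Sema3d at 4.78 ± 1.03 CPM per kb, whose libraries overlapped, and by Sema3a. With the longest coding transcript Sema3a stood above Sema3d. Plxna1 and Plxna3 stood above Plxna4 (11.6 ± 0.775) and Plxna2 (2.42 ± 0.241). Robo2 was above Robo1 (6.39 ± 0.273), and Slit1 was above Slit2 (1.88 ± 0.243) and Slit3 (1.38 ± 0.494). In the Kirrel family the order was Kirrel2, Kirrel (18.7 ± 0.645) and Kirrel3, and the ratio of Kirrel2 to Kirrel3 per kb ranged from 8.15 in het replicate 3 to 26.9 in WT replicate 2.

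**Figure D3:**
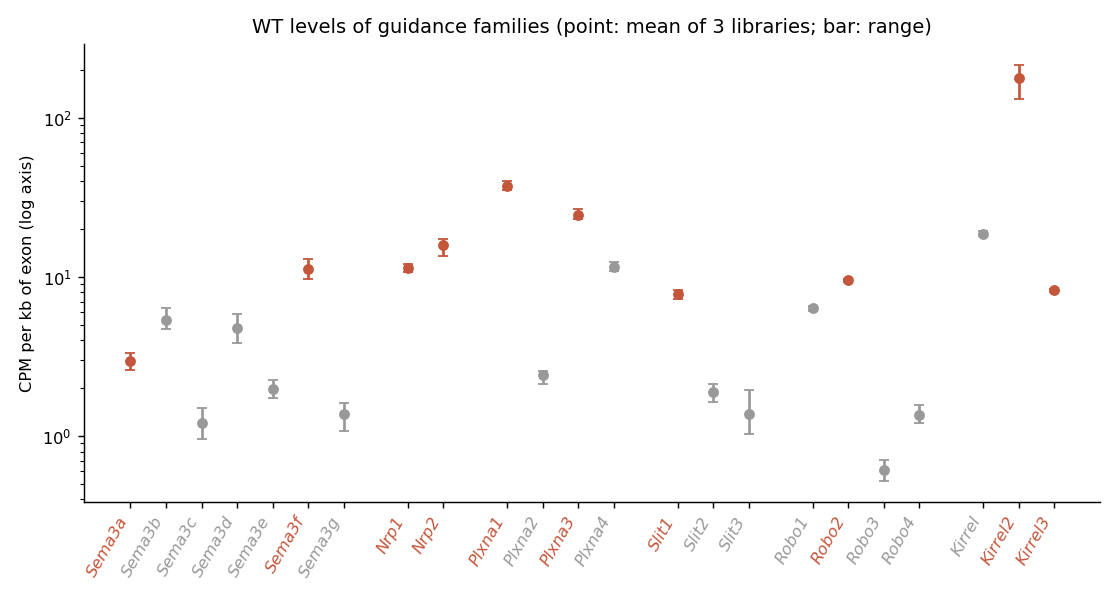
Levels of guidance gene families in the 3 WT libraries, in CPM per kb of exon on a log axis, with the 10 guidance genes described here in red and their paralogues in grey. Points are means and bars are ranges, and Kirrel2 stands highest at 179 CPM per kb.

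Across the 10 libraries, whatever their genotype, the guidance genes were then compared with each other. Of the 45 pairs, 28 had a positive correlation of log2(CPM + 0.5), 4 had an unadjusted p under 0.05 in a two-sided permutation test, and 1 passed after Benjamini-Hochberg adjustment over the pairs. This pair was the plexin gene Plxna3 and the ligand gene Slit1, with r = 0.912 (permutation p = 0.00033, adjusted p = 0.0148) and rho = 0.939 (permutation p = 0.00029, adjusted p = 0.0130). Without homo replicates 3 and 4, the 2 libraries farthest from the median of Plxna3, r was 0.867. Within genotypes r was 0.920, and with each library left out in turn it ranged from 0.877 to 0.942. The permutations, here and below, treated the 10 libraries as exchangeable. Same-numbered WT and het libraries deviated together over all genes, so these p-values may be too small.

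Plxna3 and Slit1 were each also close to other genes, and whether these were the same genes was not tested. Plxna3 had an r over 0.9 with 93 of 15742 genes, the nearest being Adamts10 (r = 0.989), Tsc1 (r = 0.980) and Rbfox2 (r = 0.976). Slit1 and Sema3f each had an r over 0.9 with 68 genes, and Kirrel2 with 8.

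Kirrel2 and Kirrel3 went in opposite directions across libraries, but the relation did not pass the adjustment. Pearson's r was -0.679 (permutation p = 0.0309, adjusted p = 0.393) and rho was -0.515 (permutation p = 0.133, adjusted p = 0.545). Without WT replicate 3 and het replicate 3, the 2 libraries farthest from the median of Kirrel2, r was -0.850, and without het replicate 3 alone it was -0.549. The ligand and receptor pairs had an r of 0.22 (Sema3a and Nrp1), 0.14 (Sema3f and Nrp2) and -0.0032 (Slit1 and Robo2), with adjusted permutation p-values of at least 0.802.

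**Figure D4:**
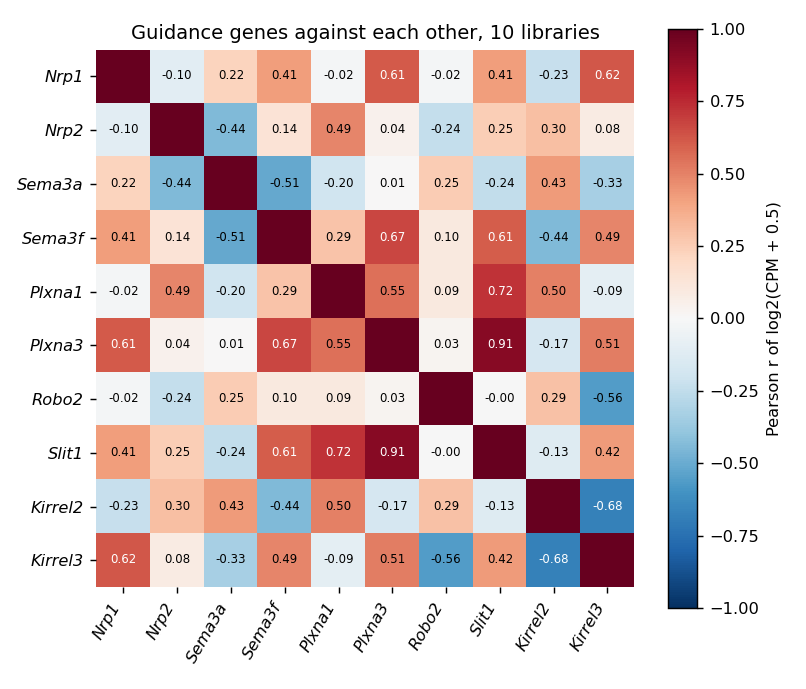
Pearson's r of log2(CPM + 0.5) between each pair of guidance genes over the 10 libraries, with red for positive and blue for negative values. The deepest red outside the diagonal is Plxna3 with Slit1 at 0.91, and the deepest blue is Kirrel2 with Kirrel3 at -0.68.

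The gene whose pattern was most like that of Kirrel2, among 15742 genes, was Pcdh10, which encodes a protocadherin, a homophilic adhesion molecule. Pcdh10 was at 69.4, 83.5 and 50.7 CPM in WT, at 70.5, 68.9 and 31.0 CPM in het and at 59.8, 52.7, 63.2 and 49.1 CPM in homo libraries. Like Kirrel2 it was highest in WT replicate 2 and lowest in het replicate 3. Over the 10 libraries r was 0.973 and rho 0.915, and r was 0.932 without het replicate 3 and 0.978 within genotypes. Because Pcdh10 was picked for this likeness, these values are a description with no test, and both genes were measured in the same libraries.

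The next genes in likeness to Kirrel2 were Arhgef3, which encodes a guanine nucleotide exchange factor, with r = 0.955, and Kcng1, which encodes a modulatory potassium channel subunit, with r = 0.944. Kcng1 was at 4.39 CPM in het replicate 3 and between 14.6 and 33.6 CPM in the other 9 libraries. Arhgef3 had a narrower range, from 64.4 CPM in het replicate 3 to 79.8 CPM in WT replicate 2. All 3 genes nearest to Kirrel2 were low in het replicate 3, but they were picked for this likeness. Their low values there are therefore no independent support.

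**Figure D5:**
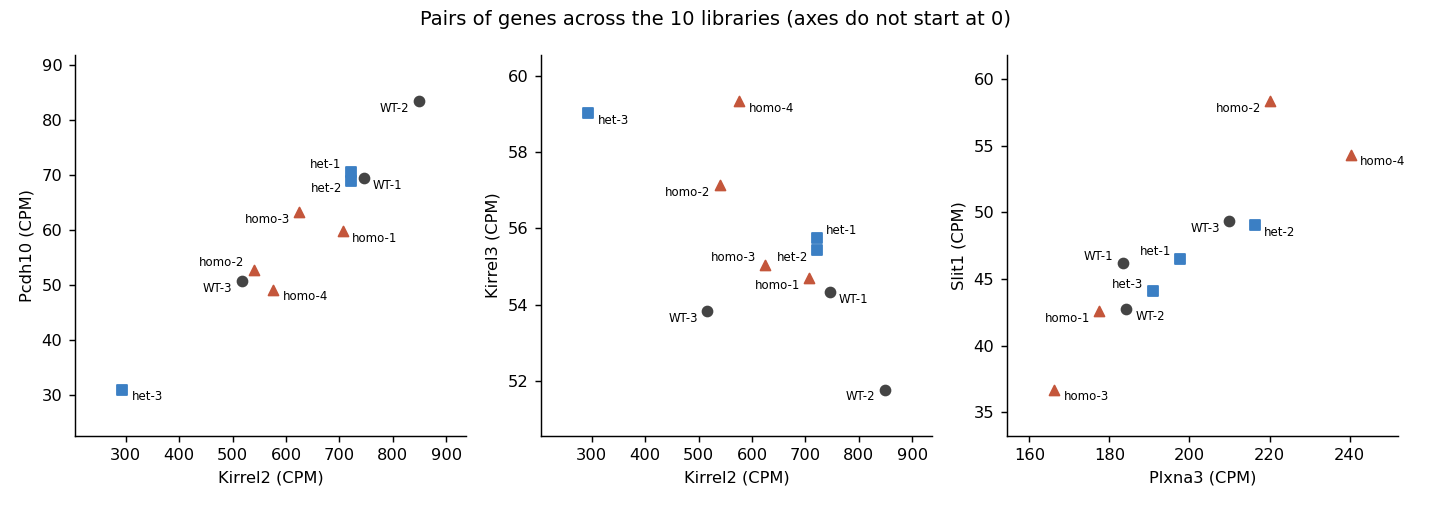
Kirrel2 against Pcdh10, Kirrel2 against Kirrel3 and Plxna3 against Slit1, all in CPM, with 1 labelled point per library (circles WT, squares het, triangles homo) and axes that do not start at 0. Het replicate 3 lies at the low end of Kirrel2 and Pcdh10, at 294 and 31.0 CPM.

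The summed level of 5 immature OSN markers (Gap43, Gng8, Tubb3, Dcx and Stmn2), all 5 with counts, moved against Kirrel2. It was 1934 CPM in WT replicate 3 and 1868 CPM in het replicate 3, the 2 highest values, and 1522 to 1704 CPM in the other 8 libraries. By genotype it ranged from 1522 to 1934 CPM in WT, from 1572 to 1868 CPM in het and from 1552 to 1704 CPM in homo libraries. The correlation with Kirrel2 was r = -0.714 (permutation p = 0.0240, adjusted p = 0.527 over 110 pairs of a gene and a marker list) and rho = -0.624 (permutation p = 0.0607, adjusted p = 0.638), and r was -0.276 without these 2 libraries, so the relation rested on them. Not all 5 markers shared this pattern. Dcx was 428 CPM in WT replicate 3 and 402 CPM in het replicate 3, beside 470 CPM in het replicate 2. The summed mature OSN markers were 10970 and 11358 CPM in the same 2 libraries, beside 9357 to 10988 CPM elsewhere. Their r with Kirrel2 was -0.446, and 0.0045 without het replicate 3. WT replicate 3 and het replicate 3 had the lowest scores on the first principal axis of all genes, which held 24.2% of the variance. The part of these differences in the levels of Kirrel2 was not tested.

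Because Kirrel2 and Pcdh10 moved together, their promoters are shown, from 250 bases before to 50 bases after the RefSeq start site on GRCm38.p6. Capitals mark matches to the core of Ebf sites (CCCNNGGG) and to the first 5 bases of the cAMP response element (TGACG), searched on both strands.
Kirrel2, chr7:30457466-30457765, minus strand: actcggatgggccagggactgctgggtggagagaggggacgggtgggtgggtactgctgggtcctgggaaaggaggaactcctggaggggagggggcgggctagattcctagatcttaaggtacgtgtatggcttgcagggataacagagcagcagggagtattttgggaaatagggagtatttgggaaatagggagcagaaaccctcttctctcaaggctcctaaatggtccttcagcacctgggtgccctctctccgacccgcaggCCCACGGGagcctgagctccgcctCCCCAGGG
Pcdh10, chr3:45378148-45378447, plus strand: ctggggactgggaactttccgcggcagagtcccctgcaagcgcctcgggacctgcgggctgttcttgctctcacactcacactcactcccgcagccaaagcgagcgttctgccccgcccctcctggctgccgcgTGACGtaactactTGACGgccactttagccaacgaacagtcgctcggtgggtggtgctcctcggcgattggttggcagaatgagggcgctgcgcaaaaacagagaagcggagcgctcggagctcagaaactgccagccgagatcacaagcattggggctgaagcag

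The Kirrel2 window held 2 matches to CCCNNGGG, at positions 19 and 43 after the start site, and 0 to TGACG. The Pcdh10 window held 2 matches to TGACG, at positions -116 and -103, and 0 to CCCNNGGG. Among 32851 promoter windows of the same length, 13.7% held CCCNNGGG and 20.8% held TGACG. The full cAMP response element TGACGTCA (1.79% of windows) and the homeodomain core TAATTA (5.29%) were in neither window, so the 2 promoters shared none of the letters searched. Windows were matched for 6 of the 10 guidance genes (Nrp1, Nrp2, Sema3a, Plxna3, Robo2 and Kirrel2), and of these Robo2 and Plxna3 each held a match to CCCNNGGG before a start site, while 0 of 6 held TGACG. A match is a run of letters and not a measured site.

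The wider set of guidance genes was read in the same way. Of 110 genes in 6 lists, which include the 10 genes above, 108 were tested, and 0 were called in any of the 3 comparisons. The 2 that were not tested, the Eph receptor genes Epha6 and Epha8, did not exceed 0.34 CPM in any library. At an unadjusted p under 0.05 by edgeR there were 0 genes between homo and WT, beside 2.41% of all genes, 2 lower between het and WT, beside 1.92%, and 2 higher between homo and het, beside 2.48%. These counts of 108 were no higher than the share over all genes, and the 4 genes are named for completeness. Those between het and WT were the semaphorin gene Sema3g, with a log2 fold change of -0.41 (SE 0.19), and the ephrin gene Efnb1, with -0.26 (SE 0.12). Those between homo and het were the Eph receptor genes Ephb3, with 0.25 (SE 0.11), and Ephb4, with 0.27 (SE 0.11). The adjusted p of these 4 genes by edgeR was at least 0.999 in each comparison.

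The median log2 fold change of the 108 genes between homo and WT was 0.0067, beside 0.00012 over all genes. By list it was 0.029 for 31 semaphorins, plexins and neuropilins, -0.032 for 17 genes of the Slit, Robo and netrin pathway, -0.032 for 20 ephrins and Eph receptors, -0.027 for 18 axon sorting and adhesion molecules, 0.036 for 16 intracellular guidance effectors and -0.0043 for 6 genes of the cAMP route.

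The 2 genes of each list with the smallest unadjusted p between homo and WT, named by rule, gave the following log2 fold changes. Plxnb3 had 0.21 (SE 0.11) and Sema6b -0.37 (SE 0.21) among the semaphorins, plexins and neuropilins. Ntn3, a netrin gene, had -0.43 (SE 0.26) and Slit2 0.14 (SE 0.11). Of the ephrins and Eph receptors, Efna2 had -0.33 (SE 0.16) and Ephb6 0.17 (SE 0.12). The protocadherin gene Pcdh17 had -0.16 (SE 0.089), and B3gnt2, whose product builds lactosamine glycans on OSN axons, had -0.092 (SE 0.091). For the effectors Srgap3 and Mical1 the values were 0.22 (SE 0.11) and 0.24 (SE 0.13). Cnga2, the olfactory cyclic nucleotide-gated channel, had 0.076 (SE 0.098) and Prkaca, a catalytic subunit of protein kinase A, had -0.10 (SE 0.13). The smallest unadjusted p among these 12 was 0.0568, for Srgap3, and the adjusted p by edgeR was 0.99996 for each.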

How the data were processed

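Per the labels, polyA-selected directional libraries were made from whole MOE RNA. The submitters' processing notes name Trimmomatic 0.36, HISAT2 2.1.0, featureCounts of Subread 1.6.2 and DESeq2 1.20.0, with mm10 (GRCm38). The authors deposited raw counts per gene and a normalized signal table of counts scaled per library, used only with limma. The strand setting of the counting is not given in the sources used here. Labels do not say which libraries are littermates, so p-values measure the spread between libraries.

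Counts were fitted in R 4.3.3 with edgeR 4.0.16 (filterByExpr with minimum count 10 and minimum total 15, TMM, robust quasi-likelihood, genotype as the only term, all 10 libraries, two-sided). Of 24421 rows, 3137 had no count and 17197 were tested, with Benjamini-Hochberg adjustment over all genes tested. DESeq2 1.42.0 and limma 3.58.1 (pseudocount 1) were alternatives, beside other scalings, filters, a sex term, replicate blocks and leaving out each library. The edgeR procedure was run on simulated counts with independent libraries and the same spread for all genes. These settings differ from the data, where spread differed between genes and same-numbered WT and het libraries deviated together. Correlations used log2(CPM + 0.5) and 100000 permutations. Within a genotype, libraries differed by more than sampling noise (13.9 to 47.0 in chi-square divided by its degrees of freedom). Positions and exon lengths came from GENCODE M21 on GRCm38, and promoters from RefSeq.

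Same-numbered WT and het libraries deviated together over all genes (correlations 0.439, 0.453 and 0.363), which pairs them by the data, since the labels give no shared litter or day. Homo libraries did not pair with WT (-0.118, 0.016 and -0.115) or het (-0.191, 0.235 and 0.096). The blocked fit changed no call on the guidance genes.

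The 10 genes, the lists and the tests were chosen with earlier results of these data known. Named genes are the 10, the 3 genes nearest to each by r, family paralogues, and per list the 2 smallest p between homo and WT, and the genes nearest to Nrp2 are not reported here. Separation on TMM-scaled CPM, the transcript length, correlations without het replicate 3 and with each library left out were added after the data had been seen.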

Additional observations from a re-analysis of the deposited data

How the results depend on the processing

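No guidance gene was called under any of the alternatives run, and the smallest adjusted p was 0.743, shared by Nrp1 (log2 fold change 0.17, SE 0.067) and Kirrel2 (-0.36, SE 0.16) between het and WT in the replicate block fit of these 2 groups alone. The changes of sign below are of small differences in genes that were never called, and their cause was not tested. In log2, Kirrel3 between homo and het was -0.0015 with DESeq2, -0.0017 with its size factors, -0.0044 with library totals, -0.0037 with a mean of at least 1 CPM, -0.0019 with limma and -0.00031 with a sex term. Robo2 between het and WT was 0.00049 with DESeq2 size factors and 0.00017 with no filter, and Sema3f was 0.00033 with limma. The sex term gave -0.0056 for Nrp2 between homo and WT, and 0.0010 for Sema3a and 0.010 for Plxna3 between homo and het, where 2 groups alone gave 0.0028 for Plxna3. In the replicate blocks homo replicate 4 had no library of the same number beside it. Its block term therefore took it up, and all comparisons with homo rested on homo replicates 1 to 3. The replicate block over all libraries gave -0.0034 for Nrp2, -0.025 for Plxna3 and -0.0084 for Slit1 between homo and WT, and 0.0036 for Sema3a, -0.015 for Slit1 and -0.0095 for Kirrel3 between homo and het. The replicate block with 2 groups alone gave -0.0047 for Nrp2, -0.025 for Plxna3 and -0.014 for Slit1 between homo and WT, and 0.00092 for Sema3a, -0.026 for Slit1 and -0.0094 for Kirrel3 between homo and het. Over all genes, calls rose from 12 to 19 between homo and WT with either replicate block, from 13 to 24 and 31 between homo and het, from 12 to 22 for any genotype difference and from 0 to 3 between het and WT with 2 groups alone. With each library left out in turn, the genes whose sign turned had these ranges: between homo and WT Nrp2 -0.096 to 0.076, Plxna1 -0.10 to 0.019, Plxna3 -0.015 to 0.15, Sema3a -0.047 to 0.12, Sema3f -0.18 to 0.042 and Slit1 -0.059 to 0.17, between het and WT Kirrel2 -0.47 to 0.043, Robo2 -0.020 to 0.031, Sema3a -0.056 to 0.15, Sema3f -0.099 to 0.11 and Slit1 -0.036 to 0.062, between homo and het Kirrel2 -0.24 to 0.28, Kirrel3 -0.018 to 0.023, Plxna1 -0.022 to 0.13, Plxna3 -0.083 to 0.080, Sema3a -0.090 to 0.094, Sema3f -0.18 to 0.0055 and Slit1 -0.074 to 0.16. Of 780 values over all alternatives, 709 were labelled as unchanged, 65 changed sign and 6 counts moved further. Unchanged meant the same sign and call for a gene and the same sign for a correlation. For a count it meant a value near that of the main fit, such as 17 genes with DESeq2 beside 12 for any genotype difference. With 3 or 4 libraries a genotype, the intervals of Kirrel2 leave room for changes that this depth and number could not detect.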

Other observations

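The genes nearest in pattern to most of the other guidance genes, by Pearson's r of log2(CPM + 0.5) over the 10 libraries and among 15742 genes, were of many functions, and these values carry no test. Sema3f was nearest to Tnpo2 (0.973), Brsk2 (0.973) and Camkk2 (0.962), and Slit1 to Pkd1 (0.957), Trim66 (0.957) and Dnmt3a (0.956). Sema3a was nearest to Zfp420 (0.962), Ggnbp2 (0.943) and Nexn (0.937). Among the receptors, Nrp1 was nearest to Cipc (0.930), Parp14 (0.920) and Nxf1 (0.918), and Plxna1 to Lmtk2 (0.959), Gpatch2l (0.937) and Notch2 (0.933). Kirrel3 was nearest to Iars2 (0.962), Gpld1 (0.940) and Npc1 (0.936).

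Robo2 was nearest to the odorant receptor gene Olfr1450 (0.901), the sodium channel gene Scn7a (0.880) and Taar4 (0.877), a receptor gene of the cluster that holds the deleted enhancers. Taar4 was at 1.34 to 3.36 CPM in WT and het and at 0 to 0.144 CPM in homo libraries. The r of Robo2 with Taar4 was 0.566 within genotypes.

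Of 110 pairs of a guidance gene and a marker list, 7 had an unadjusted permutation p under 0.05 and 0 passed the adjustment. Sema3a had the most negative of these, with 6 endothelial markers (r = -0.801, permutation p = 0.00615, rho = -0.733), and r was -0.420 without the 2 libraries farthest from its median. Plxna1 had the most positive, with 3 vomeronasal markers (r = 0.805, permutation p = 0.00512, adjusted p = 0.338), whose summed level was 0.28 to 0.93 CPM. Of these Trpc2 had counts in het replicate 1 alone, at 0.044 CPM. With the olfactory bulb neuron markers Robo2 had r = -0.724 (permutation p = 0.0170, adjusted p = 0.469), and -0.430 within genotypes. Sema3a also had an r of 0.81 with the second principal axis of all genes, which held 19.6% of the variance.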
